A study of Mus musculus with 27 samples.

Results

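The subunits of the receptors for glutamate, GABA, and glycine were followed while mouse embryonic fibroblasts (MEFs) were turned toward induced neurons (iNs). The members were the 28 genes of a list of receptor subunits, matched by gene name among the 54532 genes of the expression table, and all 28 were found. They comprised 16 excitatory subunits (Gria1 to Gria4, Grik1 to Grik5, Grin1, Grin2a to Grin2d, Grin3a, and Grin3b) and 12 inhibitory subunits (Gabra2 to Gabra5, Gabrb1, Gabrb2, Gabrg1, Gabrg3, Glra1 to Glra3, and Glrb). Bulk RNA-seq covered 27 libraries, with 3 replicates for every combination of genotype (WT, Per1-/-, or Per2-/-) and day (0, 2, or 4). The WT and mutant MEFs (alleles B6.129-Per1tm1Drw and B6.129-Per2tm1Drw) came from midgestation embryos without head and heart, with several embryos pooled per dish and sex not determined. All 9 groups, controls included, received doxycycline-inducible lentiviruses for the BAM factors, Brn2 and Myt1l among them, and the transactivator rtTA before day 0. Doxycycline and the serum-free neuronal medium N3 followed from day 0, and the day 0 libraries were made before induction. Comparisons with day 0 therefore hold induction, the change of medium, and time in culture together, and these cannot be told apart. The cultures were mixed, because fibroblasts that did not convert and macrophages remained in them.

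Fast transmission between neurons runs through ligand-gated ion channels built from several subunits. Glutamate opens AMPA receptors (Gria genes), kainate receptors (Grik genes), and NMDA receptors (Grin genes), which let cations in and excite the cell. GABA and glycine open chloride channels, the GABA-A receptors (Gab genes) and the glycine receptors (Glr genes), which in most mature neurons inhibit the cell. Fibroblasts are not known for such transmission, so the subunits are commonly read as genes of neuronal identity and maturation. A channel needs a set of compatible subunits, and a transcript of 1 subunit alone says nothing of a working receptor.

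Levels are given as deposited, in FPKM (fragments scaled by exon length and library size). The length is that of all annotated exonic bases of a gene, so levels and shares compare different genes only roughly. Depth was 15815013 to 24264097 fragments on genes per library, and with the gene lengths each value could be turned back into whole fragments. The Per2 transcript was at 1.87 to 2.00 FPKM on day 0 in the libraries labelled Per2-/- and at 0.817 to 0.957 in WT cells, so this RNA was not reduced. The level of RNA does not show whether protein was lost. By western blotting, the paper reports loss of PER1 protein in Per1-/- MEFs and of PER2 protein in Per2-/- MEFs. The libraries labelled Per2-/- are named by their label throughout. Per1 was at 3.23 to 4.96 FPKM in Per1-/- cells and 5.44 to 6.33 in WT cells on day 0. Of the delivered factors, Pou3f2 (Brn2) was at most at 0.0278 FPKM before induction, at 228 to 770 by day 2, and at 121 to 429 by day 4. Myt1l was at 0.496 to 1.12 FPKM on day 2 and 0.694 to 1.68 on day 4. All 12 fibroblast markers and 14 of 15 neuronal markers passed the filter on low values described next, and 12 of these 14 rose from day 0 to day 4 in each genotype. The 16 macrophage markers summed to 142 to 1176 FPKM on day 0, 187 to 1352 on day 2, and 490 to 2300 on day 4, and none was at 0 in all 9 libraries of a day.

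A gene was tested when its mean over the 27 libraries was at least 0.5 FPKM, which 14932 genes reached. Of the 28 subunits, 15 passed, 10 of the 16 excitatory (Gria1, Gria2, Gria3, Gria4, Grik1, Grik2, Grik5, Grin1, Grin2d, and Grin3a) and 5 of the 12 inhibitory (Gabra3, Gabra4, Gabrb1, Gabrb2, and Glrb). The other 13 stayed below. Tests were made with limma on log2(FPKM + 0.1), so fold changes of low genes are understated, and a gene was called when its Benjamini-Hochberg adjusted p did not exceed 0.05 and its log2 fold change reached 0.58 in either direction. The labels call the replicates biological but do not say that they came from separate cultures, so the p-values measure only the spread between these libraries, which may be technical. Log2 fold changes of a gene are given in the order of WT cells, Per1-/- cells, and the libraries labelled Per2-/-, as are their adjusted p-values. Comparisons of days 2 and 4 with day 0 share the day 0 libraries of each genotype.

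On day 0 the subunit RNA was mostly of 2 excitatory genes. Gria3 held 48.1% and Grik5 35.2% of the summed level of the 16 excitatory subunits over the 9 libraries, at 9.67 and 7.07 FPKM. The highest inhibitory subunits were Glrb at 1.33 FPKM, Gabra4 at 1.24, and Gabrb1 at 0.827. The excitatory sum in WT cells was 18.5, 23.2, and 18.5 FPKM before induction, 34.7, 35.5, and 36.6 by day 2, and 42.9, 40.5, and 41.2 by day 4. In Per1-/- cells it was 21.2, 17.0, and 19.4 FPKM, then 34.2, 35.5, and 33.2, then 36.1, 41.5, and 37.7. The libraries labelled Per2-/- gave 20.59, 22.05, and 20.47 FPKM, then 36.0, 37.4, and 34.9, then 42.6, 43.9, and 41.8. Every library of day 4 lay above every day 0 library of its genotype. In bulk samples such as these, more cells of a type and more RNA per cell cannot be told apart.

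The inhibitory sum moved in another order, with its highest group mean on day 2 in each genotype. In WT cells it was 4.51, 4.44, and 3.87 FPKM before induction, 17.1, 17.98, and 25.4 by day 2, and 13.3, 14.1, and 20.45 by day 4. Per1-/- cells gave 3.70, 3.44, and 5.13 FPKM, then 20.3, 20.4, and 16.1, then 15.2, 15.5, and 14.1. In the libraries labelled Per2-/- it was 4.71, 3.51, and 4.07 FPKM, then 18.7, 31.7, and 24.6, then 13.7, 26.1, and 13.1. Glrb made up 81.1% of this sum on day 2 and 74.3% on day 4, so the inhibitory sum was largely the level of 1 gene. The delivered factor Pou3f2 was likewise higher on day 2 than on day 4 (370 against 185 FPKM over 9 libraries), and its highest library on both days, at 770 and 429 FPKM, was replicate 2 of those labelled Per2-/-, which also held the highest inhibitory sum. In WT cells replicate 3 was the highest in both measures, with Pou3f2 at 406 and 207 FPKM. In Per1-/- cells Pou3f2 was highest in replicate 1 (309 and 177 FPKM). The inhibitory sum there was nearly equal in replicates 2 and 1, at 20.4 and 20.3 FPKM on day 2 and 15.5 and 15.2 on day 4. The part of this factor in the sum was not tested.

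**Figure D1:**
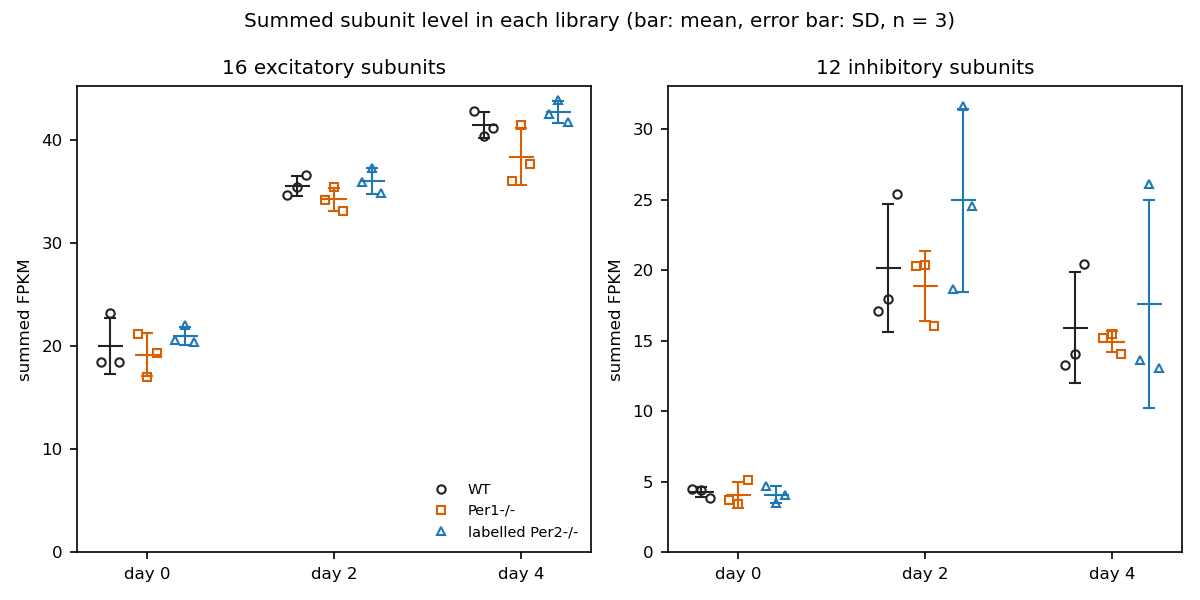
Summed FPKM of the 16 excitatory (left) and 12 inhibitory (right) subunits in each library by day, with points for libraries, bars for group means, and error bars for the SD (n = 3). The excitatory sum rises from 17.0 to 23.2 FPKM on day 0 to 36.1 to 43.9 on day 4, and the inhibitory sum is at 3.44 to 5.13 FPKM on day 0, 16.1 to 31.7 on day 2, and 13.1 to 26.1 on day 4.

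From day 0 to day 4, 11 of the 15 tested subunits rose and 1 fell in WT cells, 12 rose and 0 fell in Per1-/- cells, and 10 rose and 2 fell in the libraries labelled Per2-/-. Of all tested genes, 22.9%, 22.6%, and 21.6% were called higher and 20.9%, 20.4%, and 18.8% lower in these comparisons. Because a subunit could pass the filter through its level on day 2 or 4 alone, the share among those tested is not a share of all 28. The median log2 fold change of the tested subunits was 1.58, 1.41, and 1.20 in WT cells, Per1-/- cells, and the libraries labelled Per2-/-, and that of all tested genes lay between -0.02 and 0.00. The same 10 subunits rose in each of the 3 genotypes, 8 excitatory (Gria2, Gria4, Grik1, Grik2, Grik5, Grin1, Grin2d, and Grin3a) and 2 inhibitory (Gabrb2 and Glrb). With 1 instead of 0.1 added to the FPKM, the Grin2d call was lost in all 3 genotypes and the Grik1 and Grik2 calls in the libraries labelled Per2-/-. No subunit fell in all 3, and all that fell in any were inhibitory (Gabra4 and Gabrb1). In Per1-/- cells, where 0 fell, 13 of the 15 had an unadjusted p under 0.05 in either direction and voom on the fragments called 1 lower.

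By day 2, 9 subunits had risen and 1 had fallen in WT cells, 8 and 0 in Per1-/- cells, and 9 and 1 in the libraries labelled Per2-/-. In Per1-/- cells 11 of the 15 had an unadjusted p under 0.05 in limma in either direction, and voom called 1 lower. All tested genes were called higher at 20.8%, 20.8%, and 18.7% and lower at 19.7%, 18.8%, and 16.8%. Subunits called in each genotype by then were Gria2, Gria4, Grik2, Grik5, Gabrb2, and Glrb. With 1 instead of 0.1 added to the FPKM, the Gria2 call was lost in each genotype and the Grik2 call in the libraries labelled Per2-/-. Of the others, the Grin3a call was lost in 3 of 6 fits without 1 library in Per1-/- cells and in 2 of 6 in those labelled Per2-/-, and the Grin2d call in 2 of 6 in WT cells. The Grin1 call in WT cells was lost with 1 added to the FPKM and when the compared groups alone were fitted. Between day 2 and day 4 only excitatory subunits were called, all of them higher. They were Gria2 and Grin1 in every genotype and also Grin3a in WT cells (3, 2, and 2 subunits), against 3.21%, 2.44%, and 4.06% of all tested genes called in either direction. The Grin3a call was lost in each of the 6 fits without 1 WT library. The Grin1 call in the libraries labelled Per2-/- was lost without replicate 1 or 3 of day 2, without replicate 2 of day 4, and when the compared groups alone were fitted, which left 1 subunit. Whether excitatory and inhibitory subunits differed in this step was not tested.

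**Figure D2:**
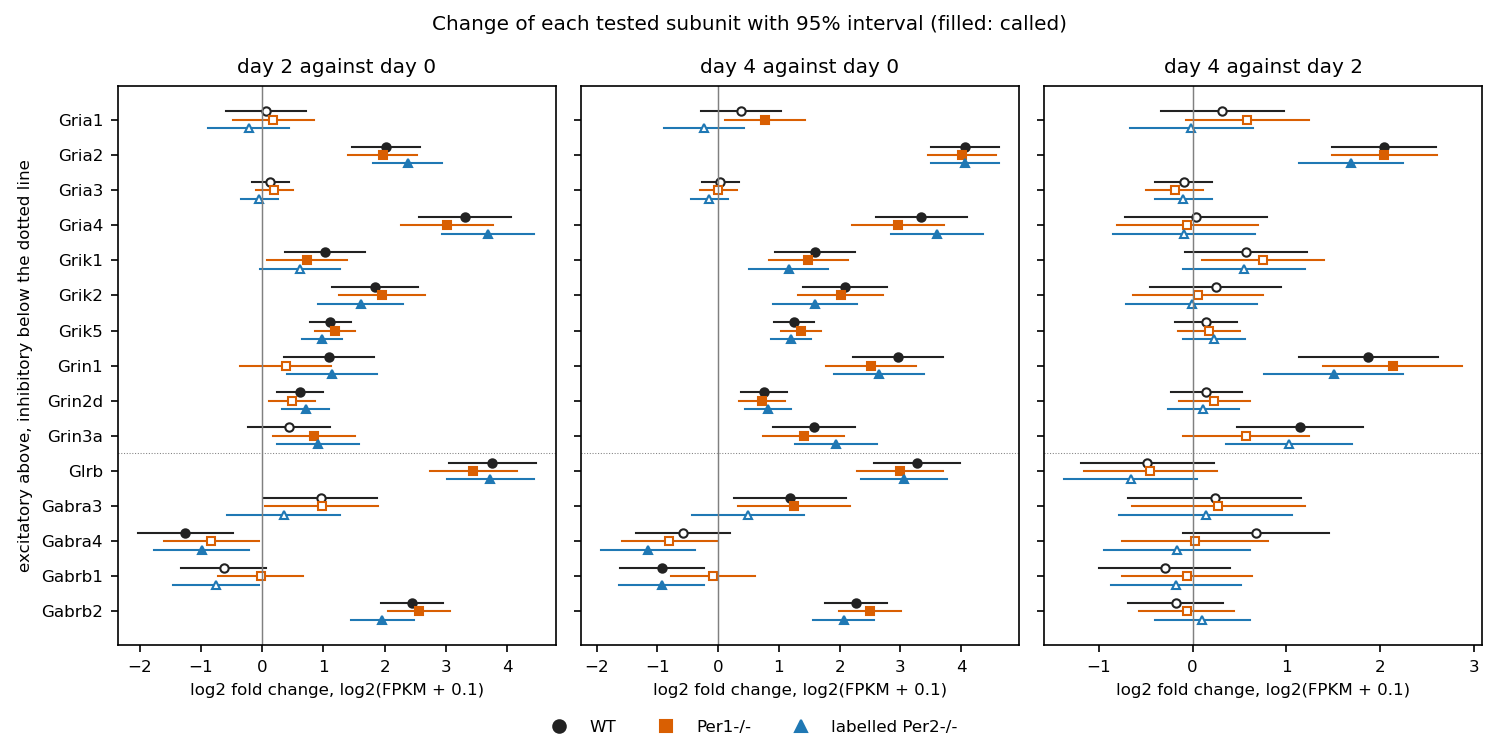
Log2 fold change on the log2(FPKM + 0.1) scale of the 15 tested subunits for 3 pairs of days, with 95% intervals from limma, filled symbols for called subunits, and genotypes by colour and shape. Gria4, Glrb, Gabrb2, Grik2, and Grik5 reach their change by day 2, whereas Gria2 and Grin1 move again between days 2 and 4.

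Among the AMPA receptor subunits, Gria2 had the largest change from day 0 to day 4 of the 15 tested subunits. It encodes the subunit that makes AMPA receptors nearly impermeable to calcium. The gene (ENSMUSG00000033981) lies on chromosome 3 from 80681450 to 80802835 of GRCm38, on the minus strand. On day 0 its level was 0.0169, 0.0342, and 0.00641 FPKM in WT cells, 0, 0.00417, and 0.00871 in Per1-/- cells, and 0.0329, 0.0102, and 0.0187 in those labelled Per2-/-, which stood on 0 to 11 fragments per library. On day 2 it was 0.293, 0.432, and 0.437 FPKM in WT cells, 0.257, 0.397, and 0.281 in Per1-/- cells, and 0.461, 0.564, and 0.548 in those labelled Per2-/-. On day 4 it was 1.62, 1.62, and 2.53 FPKM in WT cells, 1.41, 1.90, and 1.47 in Per1-/- cells, and 1.45, 2.78, and 1.71 in those labelled Per2-/-, from 451 to 905 fragments. The libraries of the 3 days did not overlap in any genotype. The log2 fold change from day 0 to day 4 was 4.06, 4.01, and 4.06 in WT cells, Per1-/- cells, and the libraries labelled Per2-/- (SE 0.27, limma adjusted p = 1.05e-10, 1.49e-10, and 1.49e-10), and that from day 2 to day 4 was 2.04, 2.04, and 1.69 (adjusted p = 0.000164, 0.000216, and 0.00115). Glrb lies 40.8 kb away on the same strand.

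The 250 bases before the start site of Gria2 (RefSeq annotation of GRCm38.p6, chr3:80802836-80803085, minus strand) are shown because this gene started from 0 to 11 fragments per library and changed the most. Capitals mark a match to the RE1 motif, on the strand opposite to the gene.

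Gria2: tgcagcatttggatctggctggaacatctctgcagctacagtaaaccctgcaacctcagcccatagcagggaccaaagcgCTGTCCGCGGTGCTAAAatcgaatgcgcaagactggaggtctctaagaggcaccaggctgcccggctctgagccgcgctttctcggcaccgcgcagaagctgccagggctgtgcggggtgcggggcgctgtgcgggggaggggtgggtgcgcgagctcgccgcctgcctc

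RE1 is the element bound by REST, a repressor of neuronal genes in other cells. The match covers 17 bases, from 170 to 154 bases before the start site, and a degenerate form of the motif was searched on both strands. Of 32851 promoter windows of the same length (250 bases before and 50 after the start), 21 held a match (0.0639%). Promoters of 21 of the 28 subunits could be matched by symbol, and Gria2 was the 1 with this motif. The octamer ATTTGCAT of POU factors was found in 0 of the 21 (1.97% of genes) and the core AAAGTTT of MYT1 factors in 0 (5.44% of genes), each searched on both strands. These matches describe the letters of short windows and not binding.

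Gria4, another AMPA subunit, rose by day 2, with no call between days 2 and 4. Its day 0 values were 0.283, 0.169, and 0.134 FPKM in WT cells, 0.352, 0.175, and 0.354 in Per1-/- cells, and 0.261, 0.160, and 0.120 in those labelled Per2-/-. They were 2.35, 2.14, and 4.22 FPKM in WT cells, 3.81, 3.17, and 2.24 in Per1-/- cells, and 2.36, 5.44, and 3.15 in those labelled Per2-/- on day 2, and 2.36, 2.21, and 4.38 FPKM in WT cells, 3.33, 3.14, and 2.30 in Per1-/- cells, and 2.28, 5.28, and 2.77 in those labelled Per2-/- on day 4. Each later library lay above every day 0 library, and days 2 and 4 overlapped in each genotype. The change from day 0 to day 4 was 3.35, 2.96, and 3.60 (SE 0.36, limma adjusted p = 1.01e-07, 5.79e-07, and 4.59e-08), and that from day 2 to day 4 was 0.03, -0.06, and -0.09, with no call (adjusted p = 0.976, 0.954, and 0.921). The highest Gria4 library of its group was replicate 3 of WT cells, replicate 1 of Per1-/- cells, and replicate 2 of those labelled Per2-/-, on both day 2 and day 4.

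Gria3 was the most abundant AMPA subunit in the MEFs and was never called. Its level over all 27 libraries was 6.67 to 12.4 FPKM (1014 to 2581 fragments), and its 9 changes between days were within -0.20 and 0.20 on the log2 scale. The 95% intervals of these changes together ran from -0.49 to 0.50, so a 1.5-fold change, 0.58 on this scale, lay outside each of them. Gria1, which with Gria2 forms the common AMPA receptor of the forebrain, was at 0.444, 0.424, and 0.701 FPKM in WT cells, 0.342, 0.784, and 0.213 in Per1-/- cells, and 0.357, 0.755, and 0.413 in those labelled Per2-/- on day 0. It was at 0.556, 0.651, and 0.426 FPKM in WT cells, 0.468, 0.434, and 0.491 in Per1-/- cells, and 0.401, 0.450, and 0.363 in those labelled Per2-/- on day 2, and at 0.647, 0.825, and 0.627 FPKM in WT cells, 0.724, 0.851, and 0.668 in Per1-/- cells, and 0.297, 0.529, and 0.397 in those labelled Per2-/- on day 4. Gria1 was called from day 0 to day 4 only in Per1-/- cells, at 0.38, 0.77, and -0.23 across the genotypes (SE 0.32, limma adjusted p = 0.304, 0.0401, and 0.543), and the day 0 and day 4 libraries of Per1-/- cells overlapped. This call was lost in 5 of 6 fits that left out 1 of its libraries, with an adjusted p of up to 0.171 under the other settings.

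**Figure D3:**
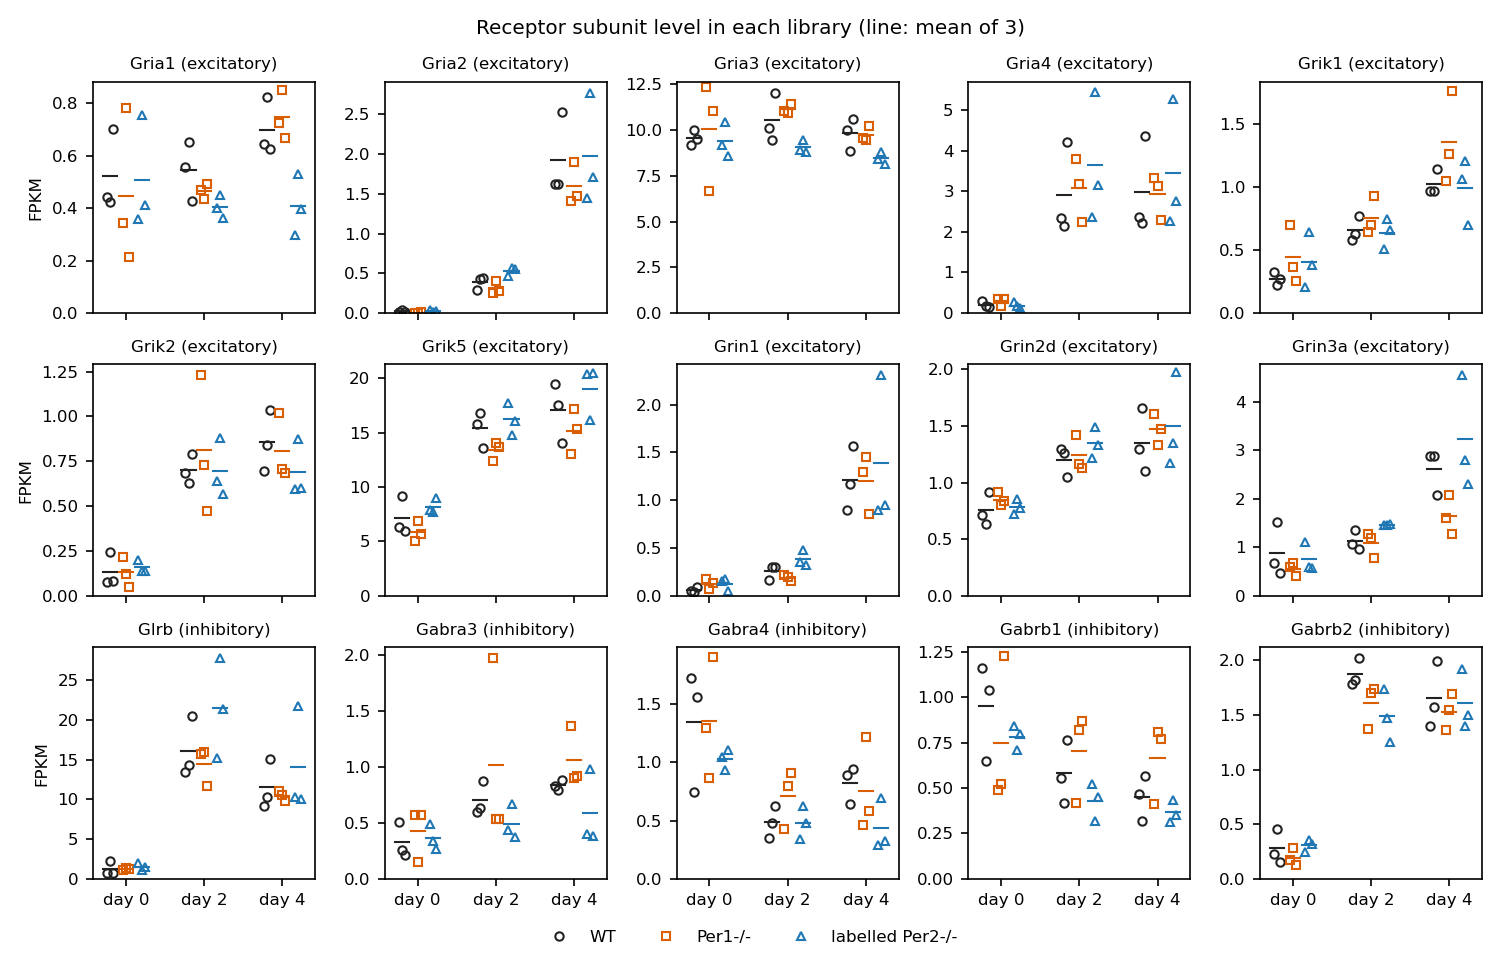
FPKM of the 15 tested subunits in each of the 27 libraries by day, on linear axes from 0, with lines for the mean of 3 libraries. Gria2 goes from at most 0.0342 FPKM on day 0 to 1.41 to 2.78 on day 4, Gria3 stays at 6.67 to 12.4 throughout, and Gabra4 and Gabrb1 have their highest libraries on day 0.

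The 3 tested kainate receptor subunits each rose from day 0 to day 4, and Grik5 and Grik2 were called in each genotype by day 2. Grik5, a high-affinity subunit that forms channels only with Grik1, Grik2, or Grik3, was the most abundant of the tested excitatory subunits on days 2 and 4. Its levels on day 0 were 6.31, 9.22, and 5.93 FPKM in WT cells, 5.0001, 6.92, and 5.66 in Per1-/- cells, and 7.88, 7.69, and 9.04 in those labelled Per2-/-. They were 15.8, 16.8, and 13.6 FPKM in WT cells, 12.4, 14.1, and 13.7 in Per1-/- cells, and 17.7, 14.8, and 16.1 in those labelled Per2-/- on day 2. On day 4 they were 19.5, 17.6, and 14.1 FPKM in WT cells, 13.1, 17.1, and 15.3 in Per1-/- cells, and 20.4, 16.2, and 20.498 in those labelled Per2-/-. The day 0 libraries did not overlap with those of day 2 or day 4 in any genotype, and the change from day 0 to day 4 was 1.25, 1.36, and 1.20 (SE 0.16, limma adjusted p = 7.82e-07, 2.84e-07, and 1.66e-06).

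Its partners were less abundant. Grik2, a core subunit that can form a channel by itself, was at 0.0754, 0.244, and 0.0828 FPKM in WT cells, 0.218, 0.122, and 0.0511 in Per1-/- cells, and 0.197, 0.140, and 0.140 in those labelled Per2-/- on day 0. It reached 0.682, 0.629, and 0.793 FPKM in WT cells, 1.23, 0.729, and 0.471 in Per1-/- cells, and 0.641, 0.879, and 0.570 in those labelled Per2-/- on day 2, and 0.695, 0.838, and 1.04 FPKM in WT cells, 1.02, 0.708, and 0.686 in Per1-/- cells, and 0.593, 0.875, and 0.603 in those labelled Per2-/- on day 4. The change from day 0 to day 4 was 2.09, 2.02, and 1.60 (SE 0.33, limma adjusted p = 1.63e-05, 2.52e-05, and 0.00034), without overlap of the libraries.

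Grik1, a related core subunit, started at 0.328, 0.223, and 0.267 FPKM in WT cells, 0.700, 0.367, and 0.252 in Per1-/- cells, and 0.203, 0.639, and 0.380 in those labelled Per2-/- on day 0. On day 2 it was at 0.574, 0.628, and 0.766 FPKM in WT cells, 0.645, 0.696, and 0.928 in Per1-/- cells, and 0.504, 0.748, and 0.661 in those labelled Per2-/-, and on day 4 at 0.964, 0.963, and 1.14 FPKM in WT cells, 1.05, 1.26, and 1.76 in Per1-/- cells, and 1.06, 1.21, and 0.699 in those labelled Per2-/-. It moved by 1.02, 0.74, and 0.62 to day 2, called in WT and Per1-/- cells, and by 1.60, 1.49, and 1.17 to day 4, called in each genotype (SE 0.31, limma adjusted p = 0.000157, 0.000327, and 0.00303). The day 2 call in Per1-/- cells was lost in 5 of 6 fits without 1 library. The libraries of days 0 and 4 did not overlap. Grik3 and Grik4 were under the filter. Grik3 had 3 to 15 fragments per library on day 0, 24 to 91 on day 2, and 69 to 140 on day 4. Grik4 had 3 to 13, 28 to 54, and 10 to 31.

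Of the NMDA receptor subunits, Grin1 is part of every NMDA receptor. It stood at 0.0542, 0.0448, and 0.0976 FPKM in WT cells, 0.181, 0.0669, and 0.133 in Per1-/- cells, and 0.152, 0.175, and 0.0479 in those labelled Per2-/- on day 0 (8 to 34 fragments). It was at 0.167, 0.298, and 0.302 FPKM in WT cells, 0.217, 0.201, and 0.156 in Per1-/- cells, and 0.354, 0.476, and 0.321 in those labelled Per2-/- on day 2, and at 0.894, 1.17, and 1.56 FPKM in WT cells, 1.29, 1.45, and 0.851 in Per1-/- cells, and 0.893, 2.31, and 0.954 in those labelled Per2-/- on day 4 (162 to 469 fragments). All day 4 libraries lay above all those of days 0 and 2, and replicate 2 of the libraries labelled Per2-/- was the highest. The change was 1.09, 0.39, and 1.14 from day 0 to day 2, called except in Per1-/- cells, and 1.87, 2.13, and 1.51 from day 2 to day 4, called in each genotype (SE 0.36, limma adjusted p = 0.00445, 0.00197, and 0.017). In the libraries labelled Per2-/- the latter call was lost in 3 of 6 fits without 1 library, and the day 2 call in 1 of 6. Grin1 shares 13.5% of its annotated exonic bases with Grin1os on the opposite strand, and the libraries kept no strand, so reads of this stretch cannot be told apart.

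Grin3a encodes a glycine-binding subunit that lowers the calcium permeability of NMDA receptors. It was at 0.672, 1.52, and 0.479 FPKM in WT cells, 0.585, 0.682, and 0.408 in Per1-/- cells, and 1.10, 0.605, and 0.572 in those labelled Per2-/- on day 0. The levels were 1.06, 1.35, and 0.964 FPKM in WT cells, 1.27, 1.19, and 0.787 in Per1-/- cells, and 1.47, 1.45, and 1.47 in those labelled Per2-/- on day 2, and 2.89, 2.89, and 2.08 FPKM in WT cells, 1.60, 2.08, and 1.28 in Per1-/- cells, and 4.56, 2.81, and 2.30 in those labelled Per2-/- on day 4. The day 4 libraries lay above the day 0 libraries in each genotype. From day 0 to day 4 it changed by 1.58, 1.41, and 1.95 (SE 0.32, limma adjusted p = 0.000235, 0.000722, and 2.73e-05), and from day 2 to day 4 by 1.15, 0.57, and 1.03 (adjusted p = 0.0433, 0.342, and 0.0576), which passed in WT cells.

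Grin2d, a glutamate-binding subunit of slowly closing receptors and prominent in early development, was at 0.718, 0.632, and 0.921 FPKM in WT cells, 0.916, 0.799, and 0.834 in Per1-/- cells, and 0.725, 0.853, and 0.776 in those labelled Per2-/- on day 0. It was at 1.30, 1.26, and 1.05 FPKM in WT cells, 1.42, 1.17, and 1.13 in Per1-/- cells, and 1.22, 1.49, and 1.33 in those labelled Per2-/- on day 2, and at 1.29, 1.66, and 1.10 FPKM in WT cells, 1.61, 1.33, and 1.47 in Per1-/- cells, and 1.17, 1.35, and 1.98 in those labelled Per2-/- on day 4. Libraries of day 4 lay above those of day 0, by 0.76, 0.72, and 0.82 (SE 0.18, limma adjusted p = 0.0011, 0.00167, and 0.00056), and 9.66% of its exonic bases lie opposite the gene model Gm45441. None of the 3 calls was kept with 1 added to the FPKM. The glutamate-binding subunits that dominate mature forebrain, Grin2a and Grin2b, stayed under the filter. Grin2a had 1 to 7 fragments per library on day 0 and 16 to 58 on day 4, and Grin2b had 2 to 71 and 32 to 115. Grin2c, the subunit of cerebellar granule cells, had 0 to 3 fragments on day 0, 20 to 90 on day 2, and 24 to 60 on day 4. Grin3b was at 0.176 to 0.748 FPKM over all libraries (10 to 52 fragments), and 32.1% of its exonic bases lie opposite Tmem259.

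Glrb, the beta subunit that ties glycine receptors to the scaffold protein gephyrin, was the subunit with the highest level on day 2. The gene (ENSMUSG00000028020) lies on chromosome 3 from 80843599 to 80913660. Day 0 levels were 0.756, 2.20, and 0.728 FPKM in WT cells, 1.10, 1.39, and 1.19 in Per1-/- cells, and 1.96, 1.08, and 1.53 in those labelled Per2-/-. On day 2 they were 13.48, 14.3, and 20.4 FPKM in WT cells, 15.7, 15.9, and 11.7 in Per1-/- cells, and 15.2, 27.7, and 21.4 in those labelled Per2-/-. They were 9.21, 10.3, and 15.1 FPKM in WT cells, 11.1, 10.5, and 9.76 in Per1-/- cells, and 10.3, 21.8, and 10.05 in those labelled Per2-/- on day 4. Later libraries lay above all day 0 libraries in each genotype. The change was 3.75, 3.44, and 3.72 to day 2 and 3.27, 2.99, and 3.06 to day 4 (SE 0.34, limma adjusted p = 5.78e-08, 2.17e-07, and 1.79e-07). From day 2 to day 4 it was -0.48, -0.45, and -0.66 with no call (adjusted p = 0.469, 0.505, and 0.255), and the libraries of these days overlapped except in Per1-/- cells.

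The beta subunit does not form a channel without an alpha subunit, and the alpha subunits were close to 0. Glra1 had 0 fragments in 23 of the 27 libraries and at most 5, with 0 in all 9 libraries of day 4, which allows up to 3 fragments per library or 0.0546 to 0.0761 FPKM in those libraries. Glra2 had 0 in 18 libraries and at most 4. Glra3 had 0 to 2 fragments on day 0, 1 to 12 on day 2, and 5 to 14 on day 4. The fourth alpha gene, Glra4, was under the filter too and was no member. On day 4 the level of Glrb was thus 9.21 to 21.8 FPKM and that of Glra3 0.0255 to 0.0683.

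Among the GABA-A subunits, Gabrb2 rose by day 2, with no call between days 2 and 4. It encodes a beta subunit of the most common GABA-A receptor of the adult brain. Gabrb2 was at 0.231, 0.456, and 0.157 FPKM in WT cells, 0.171, 0.286, and 0.128 in Per1-/- cells, and 0.241, 0.359, and 0.320 in those labelled Per2-/- on day 0. On day 2 it was at 1.78, 1.82, and 2.02 FPKM in WT cells, 1.37, 1.70, and 1.74 in Per1-/- cells, and 1.74, 1.47, and 1.25 in those labelled Per2-/-. On day 4 it was at 1.40, 1.58, and 2.00 FPKM in WT cells, 1.36, 1.54, and 1.69 in Per1-/- cells, and 1.92, 1.39, and 1.5001 in those labelled Per2-/-. All later libraries lay above all of day 0, with changes to day 4 of 2.27, 2.50, and 2.07 (SE 0.24, limma adjusted p = 9.09e-08, 2.68e-08, and 3.84e-07).

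Gabra4 and Gabrb1 went the other way. Gabra4 encodes an alpha subunit of receptors outside synapses, and its levels were 1.72, 0.747, and 1.56 FPKM in WT cells, 1.29, 0.864, and 1.90 in Per1-/- cells, and 1.05, 0.933, and 1.11 in those labelled Per2-/- on day 0. They were 0.349, 0.476, and 0.626 FPKM in WT cells, 0.430, 0.794, and 0.909 in Per1-/- cells, and 0.340, 0.624, and 0.478 in those labelled Per2-/- on day 2, and 0.889, 0.643, and 0.945 FPKM in WT cells, 0.463, 1.22, and 0.585 in Per1-/- cells, and 0.288, 0.690, and 0.324 in those labelled Per2-/- on day 4. It was called lower on day 2 in WT cells and those labelled Per2-/-, with -1.26, -0.83, and -0.98 (SE 0.37, limma adjusted p = 0.0065, 0.0608, and 0.03). The WT call was kept in all 6 fits that left out 1 library. That of the libraries labelled Per2-/- was lost in 4 of 6 (without replicate 1 or 3 of day 0 or of day 2), with 1 added to the FPKM, without the filter, and when the FPKM were rescaled to 1 sum. On day 4 the change was -0.58, -0.80, and -1.15 (adjusted p = 0.183, 0.0677, and 0.0114), called in the libraries labelled Per2-/- alone. Without replicate 1 of the day 4 libraries labelled Per2-/- that last call was lost.

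Gabrb1, a beta subunit, was at 1.16, 0.650, and 1.04 FPKM in WT cells, 0.489, 0.520, and 1.23 in Per1-/- cells, and 0.841, 0.709, and 0.797 in those labelled Per2-/- on day 0. It was at 0.555, 0.418, and 0.766 FPKM in WT cells, 0.418, 0.821, and 0.869 in Per1-/- cells, and 0.522, 0.319, and 0.450 in those labelled Per2-/- on day 2, and at 0.468, 0.318, and 0.567 FPKM in WT cells, 0.414, 0.810, and 0.768 in Per1-/- cells, and 0.314, 0.434, and 0.350 in those labelled Per2-/- on day 4. The change to day 4 was -0.92, -0.09, and -0.93 (SE 0.33, limma adjusted p = 0.0207, 0.839, and 0.0214), called lower in WT cells and those labelled Per2-/-, whose day 0 and day 4 libraries did not overlap. Each of these calls was lost in 3 of 6 fits that left out 1 of their libraries, and both were lost with FPKM rescaled to a common sum. Gabra4 and Gabrb1 lie head to head on chromosome 5, with gene bounds that overlap by 196 bases and 46 exonic bases in common, 0.756% and 0.332% of their exonic bases.

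Gabra3, an alpha subunit of the benzodiazepine-sensitive kind, was at 0.509, 0.259, and 0.216 FPKM in WT cells, 0.566, 0.149, and 0.570 in Per1-/- cells, and 0.492, 0.338, and 0.266 in those labelled Per2-/- on day 0. It was at 0.600, 0.634, and 0.879 FPKM in WT cells, 1.98, 0.537, and 0.538 in Per1-/- cells, and 0.438, 0.667, and 0.377 in those labelled Per2-/- on day 2, and at 0.832, 0.790, and 0.886 FPKM in WT cells, 1.36, 0.905, and 0.917 in Per1-/- cells, and 0.400, 0.985, and 0.383 in those labelled Per2-/- on day 4. Replicate 1 of Per1-/- cells was the highest on both of these days. The change to day 4 was 1.19, 1.25, and 0.49 (SE 0.44, limma adjusted p = 0.0243, 0.0185, and 0.352), called in WT and Per1-/- cells, where it was lost in 4 of 6 and 2 of 6 fits that left out 1 library. Of the GABA-A subunits under the filter, Gabrg1 and Gabra2 lie in the same cluster as Gabra4 and Gabrb1 on chromosome 5 but had more fragments on the later days. Gabrg1 had 0 to 4 fragments per library on day 0, 7 to 56 on day 2, and 17 to 85 on day 4, and Gabra2 had 2 to 14, 23 to 44, and 17 to 53. Gabra5 and Gabrg3, neighbours on chromosome 7, had 0 to 10 and 0 to 24 fragments over all libraries.

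On day 4 the 13 subunits under the filter had means over 9 libraries from 0 FPKM (Glra1) to 0.491 (Grik3), with Grin3b at 0.489 and Grin2c at 0.393. When genes were tested without the filter, 7, 7, and 5 of the 13 low subunits were called higher on day 4 than on day 0 in WT cells, Per1-/- cells, and the libraries labelled Per2-/-. Grin2c, Grik3, Grik4, Gabrg1, and Gabra2 were called in each genotype, Grin2a in WT and Per1-/- cells, Glra3 in WT cells, and Grin3b in Per1-/- cells. Without the filter 12.7%, 13%, and 13.1% of 36800 genes were called higher. The log2 fold change on day 4 was 1.81 to 2.35 for Grin2c and 1.90 to 2.04 for Grik3, values that depend on the added 0.1 because day 0 held 0 to 15 fragments per library.

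No subunit was called between genotypes on any day. Of all tested genes, 0.0134%, 0.0067%, and 0.0268% were called between Per1-/- and WT cells on days 0, 2, and 4, 0.0067%, 0.0268%, and 0.0067% between the libraries labelled Per2-/- and WT cells, and 0.0201%, 0.0737%, and 0.556% between Per1-/- cells and those labelled Per2-/-. These comparisons share libraries with each other. With a test on counts and the same thresholds, the paper reports many more genes that differ between Per1-/- and WT cells. The limma fit used here called far fewer, so the lack of subunit calls is weak evidence that the genotypes were alike. Over the 135 values (15 subunits, 3 pairs, 3 days), limma gave 6 with an unadjusted p under 0.05 and a lowest adjusted p of 0.213, and voom called 0. The differences ran from -0.89 to 0.84, and the 95% interval lay within 2-fold in 91 of the 135 and within 1.5-fold in 26. For most of these values the interval thus reached beyond a 1.5-fold difference.

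The smallest p-values between Per1-/- and WT cells were of Grin3a on day 4 (1.65 against 2.62 FPKM, log2 difference -0.64, interval -1.31 to 0.03, limma adjusted p = 0.835), Grik5 on day 0, and Grik1 on day 0 (adjusted p = 1 for each). Between the libraries labelled Per2-/- and WT cells they were of Gabra4 (0.434 against 0.826 FPKM, -0.85), Gria1 (0.407 against 0.700 FPKM, -0.67), and Gria3 (8.46 against 9.83 FPKM, -0.21), each on day 4 with a limma adjusted p of 1. Between Per1-/- cells and those labelled Per2-/-, Grik5 on day 0 was at 5.86 against 8.20 FPKM (-0.49, limma adjusted p = 0.625). Grin3a on day 4 was at 1.65 against 3.22 FPKM (-0.89, interval -1.56 to -0.22, limma adjusted p = 0.213) and Gria1 at 0.748 against 0.407 (0.76, interval 0.10 to 1.42, limma adjusted p = 0.29), without overlap of libraries in either and without a call. The summed macrophage markers on day 4 were 899, 641, and 1143 FPKM in WT cells, 2300, 1283, and 2280 in Per1-/- cells, and 599, 490, and 843 in the libraries labelled Per2-/-. Their part in the levels of these subunits was not tested.

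**Figure D4:**
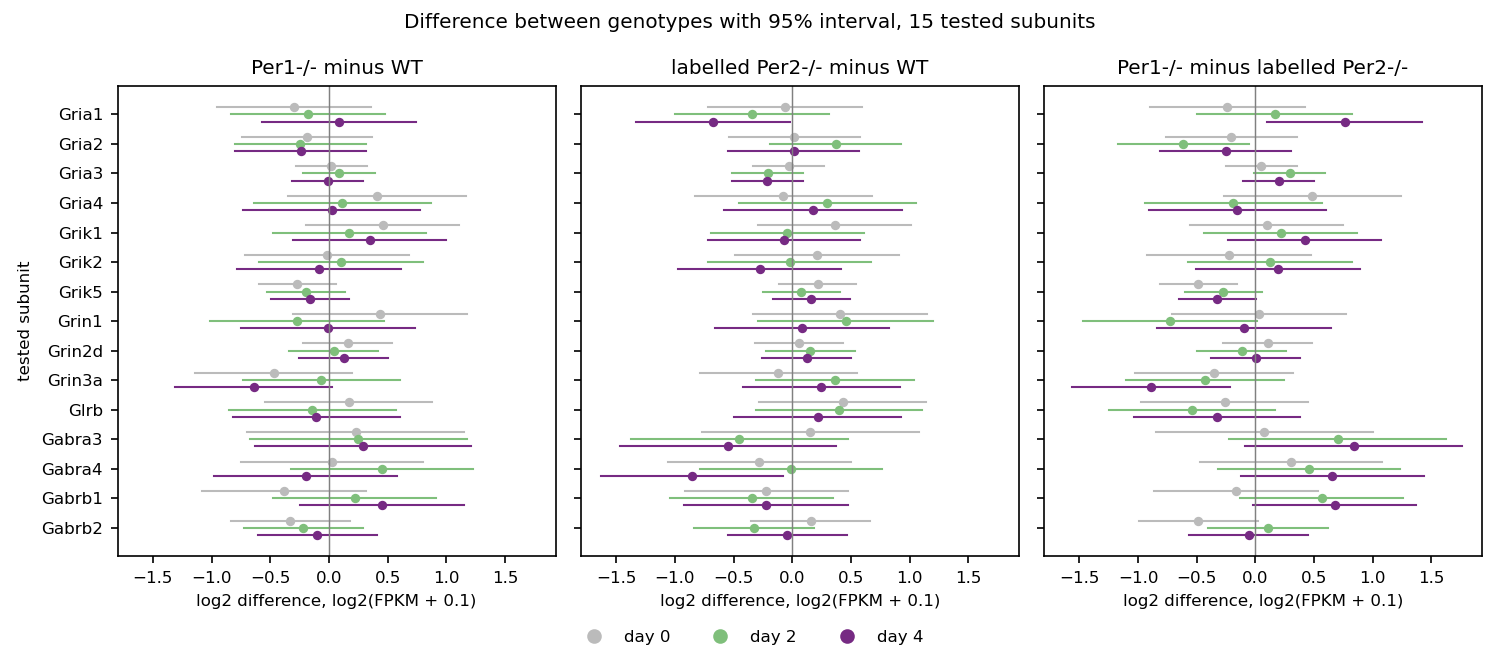
Log2 differences between genotypes for the 15 tested subunits on each day, on the log2(FPKM + 0.1) scale, with 95% intervals from limma. The points lie between -0.89 and 0.84, and 6 of the 135 have an unadjusted p under 0.05.

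The change from day 0 to day 4 was also compared between genotypes with an interaction contrast. No subunit was called, as was 0% of all tested genes in each of the 3 contrasts. In limma, 1 of the 45 values had an unadjusted p under 0.05, and voom called 0. That value was of Gria1, whose change was 1.00 larger in Per1-/- cells than in the libraries labelled Per2-/- (SE 0.45, adjusted p = 0.791). The intervals of the 45 differences lay within 2-fold in 15, so the changes over time were not shown to be alike either.

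The companions of these receptors were read from lists chosen by function. The number called higher and lower from day 0 to day 4 is given for WT cells, Per1-/- cells, and the libraries labelled Per2-/- in turn. Beside these counts, 22.9%, 22.6%, and 21.6% of all tested genes were called higher and 20.9%, 20.4%, and 18.8% lower. A companion, too, could pass the filter through its level on day 2 or 4 alone. Of 10 metabotropic receptors Gabbr1 alone was tested, the ligand-binding subunit of GABA-B receptors, and it rose in each genotype. Its means over 9 libraries were 4.85, 8.80, and 9.38 FPKM on days 0, 2, and 4, and its log2 fold change to day 4 was 0.88 to 0.97, and the genes below are given in the same way.

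Auxiliary proteins of glutamate receptors bind the channels or gather them at synapses. Of 16 genes 9 were tested, with 7, 8, and 7 higher and 1 lower in each. Gsg1l, an AMPA receptor partner, rose from 0.0106 FPKM on day 0 to 1.52 and 3.59 on days 2 and 4 (4.43 to 5.47), Cacng4, a TARP that carries AMPA receptors to the surface, from 0.0537 to 0.462 and 2.29 (3.54 to 4.34), and Cnih2, a cornichon, from 1.60 to 8.73 and 12.1 (2.79 to 3.04). Nptx2, a secreted pentraxin that gathers AMPA receptors, fell from 6.17 to 1.48 and 1.69 FPKM (-2.03 to -1.52). Cacng2 and Cacng3 were at 0 in all 9 day 0 libraries.

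Of 21 scaffold genes of the excitatory synapse 15 were tested, with 7 higher in each genotype and 2, 1, and 1 lower. Shank1 (0.0373, 0.985, and 2.70 FPKM, 4.15 to 4.50), Dlgap3 (0.0614, 0.663, and 1.84 FPKM, 3.40 to 3.98), and Homer2 (0.357, 4.14, and 3.09 FPKM, 2.24 to 3.24) led the rise. Of 11 scaffold genes of the inhibitory synapse 8 were tested, and 4 rose and 0 fell in each genotype, among them Lhfpl4, a partner of GABA-A receptors (0.0675, 0.578, and 1.45 FPKM, 2.96 to 3.52) and Plcl1 (2.12, 4.66, and 6.44 FPKM, 1.53 to 1.61). With 0 lower, limma gave an unadjusted p under 0.05 to 8, 8, and 7 of the 8 in either direction, and voom called 4 in each genotype. The summed level of the 11 genes was lower by value on the later days, at 280.1 FPKM over the 9 day 0 libraries, 228 on day 2, and 248.99 on day 4.

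Few genes of transmitter supply passed the filter. Of 19 genes for transmitter synthesis and transport 6 were tested, with 3, 4, and 3 higher. Abat, which breaks down GABA (1.47, 6.03, and 5.90 FPKM, 1.78 to 2.22), the glutamate transporter Slc1a3 (1.26, 2.33, and 5.10 FPKM, 1.75 to 2.17), and the glycine transporter Slc6a9 (3.22, 4.04, and 5.97 FPKM, 0.78 to 0.99) rose. Slc32a1, the vesicular transporter of GABA and glycine, was at 0 in all libraries of days 2 and 4.

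Marker lists of other cell types were counted in the same way, against the 22.9%, 22.6%, and 21.6% of all tested genes called higher and the 20.9%, 20.4%, and 18.8% called lower. From day 0 to day 4, 13, 15, and 8 of 16 macrophage markers, 8, 7, and 7 of 12 fibroblast markers, 2, 4, and 4 of 6 tested Schwann and neural crest markers, 3, 2, and 2 of 6 tested muscle markers, and 2 of 6 tested astrocyte markers in each genotype were called higher. Of the tested oligodendrocyte markers 2, 1, and 1 of 3 rose, of the endothelial 1 of 2, and of the pericyte 2 of 4 in each genotype. Those called lower were 3 fibroblast markers in each genotype (Thy1, Twist2, and Fn1), 2, 1, and 2 astrocyte, 2, 2, and 1 muscle, 1 endothelial, and 2 pericyte markers. The summed Schwann and neural crest markers went from 4.69 to 13.5 FPKM on day 0 to 12.1 to 28.4 on day 4. The 7 astrocyte markers summed to 56.8 FPKM over the 9 day 0 libraries and to 35.1 and 41.8 over those of days 2 and 4, and the 8 muscle markers to 46.5, 18.8, and 22.9. The part of these cells in the subunit levels was not tested.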

How the data were processed

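The authors sequenced poly-A RNA from 27 libraries as paired ends without strand, aligned filtered reads with HISAT2 2.0.5 to GRCm38 with Ensembl annotation, counted fragments with featureCounts 1.5.0-p3, and deposited FPKM per gene. Each deposited FPKM value came back to whole fragments with the gene length (100% within 0.01). From these values, log2(FPKM + 0.1) of 14932 genes, whose mean reached 0.5 FPKM, was fitted with limma 3.58.1 in R 4.3.3 over 9 groups, with mean-variance trend and no replicate block. The script was tested on simulated data. Alternatives were pseudocounts 1 and 0.01, a filter at 1 FPKM, no filter, FPKM rescaled to a common sum, voom on the fragments, fitting the compared groups alone, a replicate block, and leaving out each library. Groups came from the sample labels. Named were the listed subunits, and of each companion list up to 3 genes in each direction with the largest change called in all genotypes, and the 3 subunits of smallest p per pair of genotypes. Members and lists were chosen with earlier results of these data known. Promoter sequences were from RefSeq (GRCm38.p6). Intervals and floors for fragments cover counting error only. Some genes of the companion lists and 1 delivered factor are not reported here.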

Additional observations from a re-analysis of the deposited data

How the results depend on the processing

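Of the 36 subunit calls between day 0 and day 4, 25 were kept under every setting that still tested the subunit. In all fits that left out 1 library 30 were kept, and none of 882 alternative values reversed. Gria1, Gria2, Grik1, Grik2, Grin1, Gabra3, Gabra4, and Gabrb1 were not tested with the filter at 1 FPKM, so their calls were not checked under it. With pseudocount 1, subunits called higher by day 2 numbered 5, 5, and 4 in WT cells, Per1-/- cells, and the libraries labelled Per2-/-, and those lower by day 2 in the libraries labelled Per2-/- and by day 4 in WT cells and those libraries numbered 0. With a mean of at least 1 FPKM, where fewer genes are tested, 5 were higher by day 2 in WT and in Per1-/- cells, 6 by day 4 in each genotype, 0 were lower by either day in the libraries labelled Per2-/- or in WT cells, and 1, 0, and 0 were called between days 2 and 4. Without a filter, where more are tested, 15 and 14 were higher by day 2 in WT cells and the libraries labelled Per2-/-, 17 by day 4 in WT cells, and 0 lower by day 2 in the libraries labelled Per2-/-. With FPKM rescaled to a common sum, the libraries labelled Per2-/- had 0 lower by day 2 and 1 by day 4, and WT cells had 0 lower by day 4. Voom on the fragments gave 1 lower in Per1-/- cells by day 2 and 1 by day 4. Fitting the compared groups alone gave 2 lower by day 2 and 1 between days 2 and 4 in the libraries labelled Per2-/-. Where no value above shows it, the cause was not tested.

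Leaving out 1 library gave 0 to 1 lower by day 2 in Per1-/- cells and 0 to 1 in the libraries labelled Per2-/-, and by day 4 0 to 2 in WT cells, 0 to 1 in Per1-/- cells, and 0 to 2 in the libraries labelled Per2-/-. Between days 2 and 4 the libraries labelled Per2-/- gave 1 to 2. Replicate numbers do not say that libraries share a culture. Deviations of same-numbered libraries of a genotype correlated at -0.017 to 0.294 across days (median 0.127, 14 of 27 pairs over 0.1), and 48 of 54 comparisons had the own number as the best match, a hint from the data and not the design. With the replicate block, 2, 1, and 2 subunits were lower by day 2 in WT cells, Per1-/- cells, and the libraries labelled Per2-/-. It changed no other count of subunits by over 1.5 times. The least precise tested subunit was Gabra3, at 9 to 181 fragments per library.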
